A study of Homo sapiens with 4 samples.

Results

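Genes with a probe that was not well above background in untreated LNCaP-derived cells but was so in both lines after NFκB (AD)-MBD induction are described here. A probe below that mark can still give a faint signal. LNCaP is a human prostate cancer cell line of luminal type. Its derivatives TR9 and TR15 carry a stably expressed Tet repressor, and TR9_MeTA14 and TR15_MeTA5 were made from them by stable transfection of a tetracycline-inducible, FLAG-tagged NFκB (AD)-MBD. Cells had tetracycline for 4 days (+Tet) or none (-Tet), and RNA of each of these 4 conditions went on 1 Agilent one-color array, so that nothing below has a replicate. All 4 arrays held construct-carrying cells, so the action of tetracycline itself and that of the induced protein cannot be told apart, and each line is a single stable line.

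A probe was chosen by 3 readings: not well above background on both -Tet arrays, well above background on both +Tet arrays, and a processed signal of at least 100 on both +Tet arrays. The flag for background is the one that Agilent Feature Extraction sets. This selected 198 of 34127 probes. They carried 194 of 27777 gene names or identifiers on the array, of which 172 were RefSeq genes, and 171 of the names had no other probe detected on a -Tet array. The other 22 probes had no RefSeq gene name and were kept under the design's own identifiers. The difference between -Tet and +Tet is therefore a condition of selection and was not tested.

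In vertebrate genomes, cytosines followed by guanine (CpG sites) can carry a methyl group, and a densely methylated promoter is usually kept silent. Methyl-CpG-binding domains (MBD) recognise such sites and normally recruit repressors. In NFκB (AD)-MBD the domain is fused to a transcription activation domain of NFκB, so that methylated promoters are bound by an activator instead, an approach called methyl-CpG targeted transcriptional activation (MeTA). Cancer cells, those of the prostate included, hold many promoters that are methylated and unused, and a silent gene also stays silent where its transcription factors are missing. DNA methylation was not measured on these arrays.

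Because the construct is designed to bind methylated CpG sites, the promoters of the leading genes are shown with every CpG in capitals. They are those of the 10 genes with the largest fold bounds in the weaker line, and of PYCARD, that the table used here contained. Each runs 5′ to 3′ on the gene's own strand from 250 bases before to 50 bases after the transcription start, as given by RefSeq on GRCh38.p14. ANXA2 lies at chr15:60397937-60398236 on the minus strand, HSPA1A at chr6:31815293-31815592 on the plus strand, CLIC3 at chr9:136996519-136996818 on the minus strand, TENT5B at chr1:27012801-27013100 on the minus strand, TUBB6 at chr18:12307419-12307718 on the plus strand and PYCARD at chr16:31202711-31203010 on the minus strand. TUBB6 had 2 promoters in the table, of which the one listed first is shown.
ANXA2: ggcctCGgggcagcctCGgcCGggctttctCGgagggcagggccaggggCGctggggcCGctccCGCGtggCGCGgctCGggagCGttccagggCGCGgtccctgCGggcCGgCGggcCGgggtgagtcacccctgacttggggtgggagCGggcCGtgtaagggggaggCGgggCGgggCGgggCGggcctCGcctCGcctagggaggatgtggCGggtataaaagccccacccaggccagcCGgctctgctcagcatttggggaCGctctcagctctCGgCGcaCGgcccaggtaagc
HSPA1A: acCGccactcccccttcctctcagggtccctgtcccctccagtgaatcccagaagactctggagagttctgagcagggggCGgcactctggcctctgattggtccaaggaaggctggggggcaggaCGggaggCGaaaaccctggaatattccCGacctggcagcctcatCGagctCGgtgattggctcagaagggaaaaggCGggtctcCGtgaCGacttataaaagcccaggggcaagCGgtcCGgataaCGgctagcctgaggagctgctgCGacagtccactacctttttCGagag
CLIC3: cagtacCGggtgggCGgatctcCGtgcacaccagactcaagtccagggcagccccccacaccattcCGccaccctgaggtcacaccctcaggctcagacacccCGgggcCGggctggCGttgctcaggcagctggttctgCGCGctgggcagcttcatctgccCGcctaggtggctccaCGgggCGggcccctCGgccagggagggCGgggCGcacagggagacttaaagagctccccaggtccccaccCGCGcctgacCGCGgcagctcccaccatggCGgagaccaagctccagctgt
TENT5B: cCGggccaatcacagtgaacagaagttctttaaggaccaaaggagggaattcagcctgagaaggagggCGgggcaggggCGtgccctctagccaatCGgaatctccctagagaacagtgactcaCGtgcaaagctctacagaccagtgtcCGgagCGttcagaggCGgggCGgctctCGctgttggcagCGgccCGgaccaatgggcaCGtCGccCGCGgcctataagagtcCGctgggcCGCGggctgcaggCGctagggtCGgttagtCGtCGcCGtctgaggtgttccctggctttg
TUBB6: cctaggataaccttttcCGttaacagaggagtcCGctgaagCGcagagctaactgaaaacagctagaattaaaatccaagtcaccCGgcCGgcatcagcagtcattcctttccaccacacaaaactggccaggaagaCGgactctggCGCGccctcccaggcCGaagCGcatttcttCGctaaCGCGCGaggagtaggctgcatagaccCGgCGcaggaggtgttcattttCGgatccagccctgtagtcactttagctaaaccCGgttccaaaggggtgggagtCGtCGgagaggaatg
PYCARD: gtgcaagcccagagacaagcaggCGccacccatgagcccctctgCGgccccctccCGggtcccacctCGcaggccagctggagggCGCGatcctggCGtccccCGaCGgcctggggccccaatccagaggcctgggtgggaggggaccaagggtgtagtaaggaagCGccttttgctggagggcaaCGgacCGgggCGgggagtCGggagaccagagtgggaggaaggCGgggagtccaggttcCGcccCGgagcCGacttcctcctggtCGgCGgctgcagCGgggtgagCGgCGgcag

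The 6 promoters held between 15 and 32 CpG sites, against a median of 14 over all 35116 promoters of the table (quartiles 4 and 28). ANXA2 had the most, 32 sites in 300 bases with a GC content of 76%, and 18.9% of all promoters held as many. HSPA1A had the fewest, 15 sites. With a GC content of at least 50% and an observed to expected CpG ratio of at least 0.6 as the mark of a CpG-rich promoter, ANXA2, TENT5B, TUBB6 and PYCARD were CpG-rich. CLIC3 and HSPA1A fell short on the ratio (0.54 and 0.55). Of all promoters, 46.9% were CpG-rich.

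**Figure D1:**
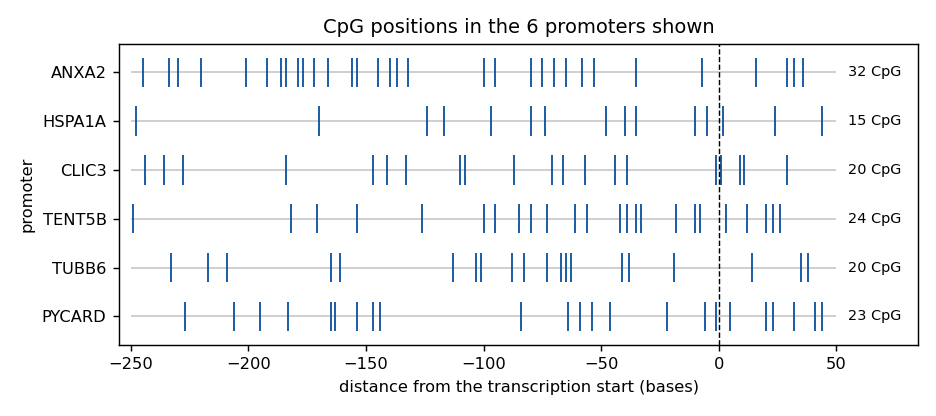
CpG positions in the promoters of ANXA2, HSPA1A, CLIC3, TENT5B, TUBB6 and PYCARD. Each vertical mark is 1 CpG site, the x axis gives its distance in bases from the transcription start (dashed line), and the count of sites stands at the right. Sites lay on both sides of the start in every promoter, and ANXA2 had 32 of them.

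Short motifs were searched on both strands of these windows. TATAAA, the TATA box, was found in ANXA2 and HSPA1A, and in 11.5% of all promoters. CCAAT was found in HSPA1A, TENT5B and PYCARD (34.6% of all promoters), and GGGCGG, which itself contains a CpG, in all shown but TUBB6 (45.0% of all promoters). The κB decamer, searched in 2 forms of the binding sequence of NFκB, was in none of the 6 and in 0.336% of all promoters. A match gives letters in a window and not a bound site. Promoters were found for 123 of the 172 named genes (71.5%), under the 80% needed here, so no account of CpG content is given over all switched-on genes.

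Of the probes measured, 11559 were not well above background on both -Tet arrays. With tetracycline, 402 of these (3.48%) reached a signal of at least 100 in TR9_MeTA14, 258 (2.23%) did so in TR15_MeTA5 and 198 (1.71%) in both. The 198 made up 49.3% of the probes switched on in TR9_MeTA14 and 76.7% of those in TR15_MeTA5. Without the floor on signal 895 probes came on in both lines, and 8670 were not well above background on any array. The opposite change was found for fewer probes. Of 13182 probes at a signal of at least 100 on both -Tet arrays, 0 lost the flag on both +Tet arrays. The same search without the floor found 92. More probes carried the flag with tetracycline, 24217 against 21918 in TR9_MeTA14 and 21599 against 20560 in TR15_MeTA5. The part of this in the difference was not tested. With the flag for a positive and significant signal in place of the one used, 54 probes met the rule.

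Before tetracycline the selected probes lay at the dim end of the scale. Their signals ran from 3.09 to 22.5 in TR9_MeTA14 -Tet (median 5.19) and from 3.07 to 18.8 in TR15_MeTA5 -Tet (median 4.97), where the lowest signals called well above background were 15.5 and 15.4. With tetracycline they ran from 102 to 27731 in TR9_MeTA14 (median 435) and from 100.4 to 8271 in TR15_MeTA5 (median 257). The medians fell at the 55.4th and 47.5th percentile of all probes well above background on the same array. With the floor of 100 the lowest members stood at the 31.6th and 29.4th percentile, so these positions follow in part from the selection. Signals of at least 1000, again not scaled between arrays, were reached by 45 probes in TR9_MeTA14, 28 in TR15_MeTA5 and 20 in both. Signals of at least 5000 were reached by 10, 4 and 3.

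A fold against an unmeasured level is given here as a lower bound, and each "at least" below holds for this processing alone. Here the +Tet level was divided by the higher of the probe's own -Tet signal and the lowest signal well above background on that -Tet array, after each array was scaled on its 75th percentile (617 without and 777 with tetracycline in TR9_MeTA14, and 367 and 542 in TR15_MeTA5). The median bound was 22.4-fold in TR9_MeTA14 (quartiles 11.3 and 44.5) and 11.3-fold in TR15_MeTA5 (quartiles 6.71 and 22.4). At least 10-fold was reached by 161 probes in TR9_MeTA14, 108 in TR15_MeTA5 and 101 in both, and at least 100-fold by 21, 9 and 6. With normexp background correction, an offset of 50 and quantile normalization the medians came to 2.19 and 1.98 on the log2 scale, against 4.48 and 3.50 here. Over all probes well above background on the 4 arrays the median log2 change was -0.15 and -0.19 after scaling, and 0.18 and 0.38 without it. In whole cultures, more cells switching a gene on and more RNA in each such cell cannot be told apart.

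Just inside the floor stood LINGO1, at 134 in TR9_MeTA14 +Tet and 100.4 in TR15_MeTA5 +Tet, ATP6V0A4 at 223 and 100.9, and CACNA1B at 179 and 100.9. Just outside stood RPRML at 239 and 99.5, ADCY5 at 99.3 and 125, and OLFML2A at 99.2 and 114.3. Members and non-members next to the floor were thus nearly alike in signal.

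ANXA2 led the group. It encodes annexin A2, a calcium-dependent phospholipid-binding protein of the membrane. Its processed signal was 8.25 and 18415 in TR9_MeTA14, without and with tetracycline, and 14.7 and 8271 in TR15_MeTA5. The bounds were at least 946-fold and at least 363-fold higher. A second ANXA2 probe, dimmer throughout, read 3.2 and 180, then 3.15 and 59.2, in the same order and was detected only with tetracycline. The annexin A2 pseudogene ANXA2P1 was also selected, with 3.27, 2376, 3.22 and 938, and since its sequence is close to that of ANXA2 the signals of these probes may not be separate.

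HSPA1A, an inducible HSP70 chaperone, had the highest signal of the group in TR9_MeTA14. It read 3.54 and 27731 in TR9_MeTA14 and 3.51 and 7185 in TR15_MeTA5, without and with tetracycline. The bounds were at least 1424-fold and at least 315-fold higher. The nearly identical HSPA1B may contribute to this probe. HSPA2, a testis-enriched relative, read 3.30 and 464 in TR9_MeTA14 and 3.24 and 1409 in TR15_MeTA5, so it reached the higher level in the other line.

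CLIC3, a chloride intracellular channel protein, read 4.16 and 25147 in TR9_MeTA14 but 9.72 and 2384 in TR15_MeTA5. The bounds were at least 1292-fold and at least 105-fold. TENT5B, which encodes a poly(A) polymerase, went from 3.35 to 6340 and from 4.16 to 1680. ANKRD35, an ankyrin repeat gene, went from 14.1 to 6694 and from 15.6 to 5427, nearly level between the lines. TUBB6, a beta-tubulin, reached 1601 in TR9_MeTA14 +Tet and 1612 in TR15_MeTA5 +Tet, from 4.54 and 10.1. CDH3, the gene of P-cadherin and otherwise a product of basal epithelium, reached 1892 and 1784. It had one of the highest -Tet signals among the members, 18.9 and 12.3, and the highest of all belonged to TET1, a methylcytosine dioxygenase singled out for it after the values were seen, with 22.5 in TR9_MeTA14 -Tet. TET1 reached 384 and 383 with tetracycline, but its second probe stayed between 3.55 and 11.8 on the 4 arrays.

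IER3, an immediate early gene that NFκB is known to induce, read 12.7 and 5886 in TR9_MeTA14 and 7.12 and 2132 in TR15_MeTA5 on the selected probe. Its other probe was already detected at 44.7 and 50.1 without tetracycline, and read 10751 and 4121 with it. The IER3 gene was therefore not silent in these cells, although the selected probe was.

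**Figure D2:**
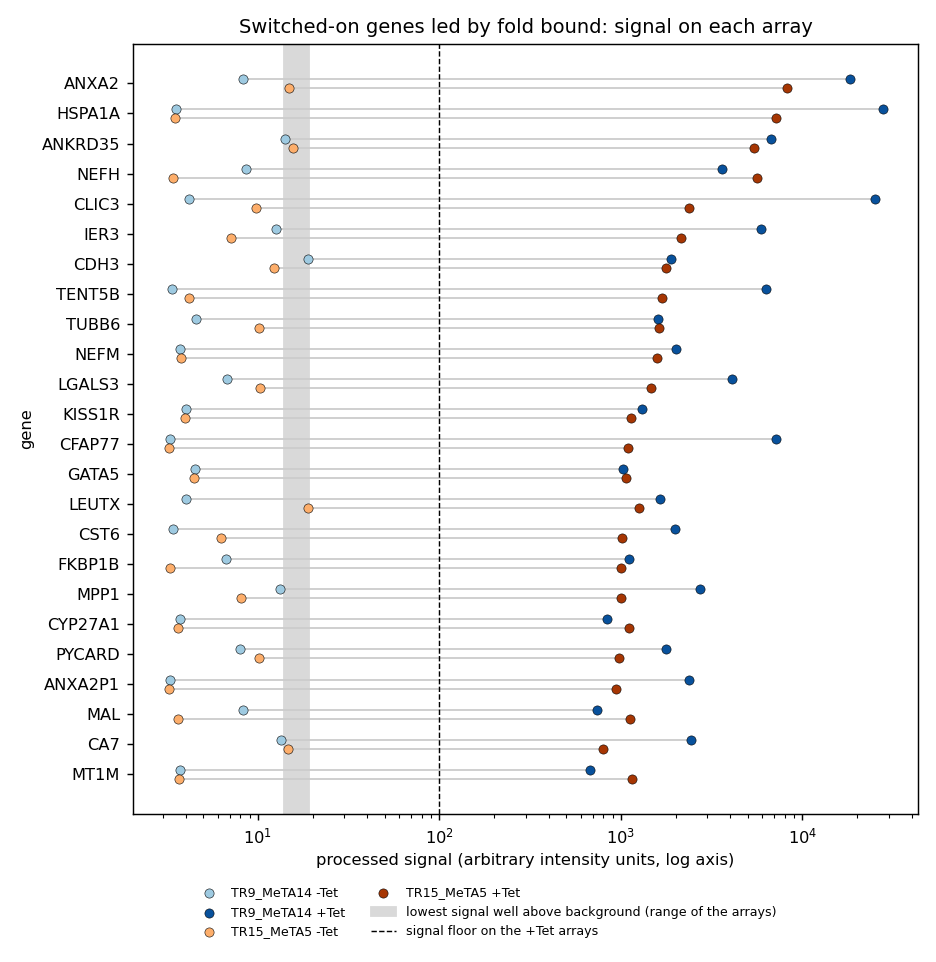
Processed signal (log axis, arbitrary units) on each of the 4 arrays for the 24 RefSeq-named genes with the largest fold bound in the weaker line, 1 point per array and a line joining -Tet and +Tet of each cell line. The grey band spans the lowest signals well above background of the 4 arrays (13.9 to 19.2) and the dashed line is the floor of 100. The +Tet points of ANXA2 lie at 18415 and 8271, those of MT1M, the last gene plotted, at 674 and 1154.

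PYCARD is the gene the study followed. It encodes ASC, an adaptor with a pyrin and a caspase recruitment domain that links inflammasome sensors to caspase-1. Its signal was 8.0 in TR9_MeTA14 -Tet and 1769 in TR9_MeTA14 +Tet, and 10.1 in TR15_MeTA5 -Tet and 971 in TR15_MeTA5 +Tet. The increases were at least 90.9-fold and at least 42.6-fold by the bounds used here, and no other probe measured it. On the log2 scale these are 6.51 and 5.41, and with normexp and quantile normalization they were 4.08 and 3.79. Its promoter, printed above, held 23 CpG sites.

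Of 5282 RefSeq-named genes with no probe well above background on a -Tet array, 150 (2.84%) were switched on in both lines. Genes with another probe detected without tetracycline do not count among the 150. Lists of genes were read against this share, with no test. The lists were chosen with earlier results of these data known, so a share above 2.84% is no independent support for a list. In the apoptosis-inducing list 1 of 15 silent genes was switched on, PYCARD. With PYCARD included, 6 of the 15 had a probe well above background on a +Tet array, at any signal. The share of all silent genes by that wider criterion was not counted, so the 6 cannot be set against 2.84%. In the inflammasome and pyroptosis list 2 of 19 silent genes were switched on, PYCARD and NLRP7. NLRP7, an NLR family gene known from oocytes and early embryos, read 3.30 and 515 in TR9_MeTA14 and 5.07 and 602 in TR15_MeTA5. The share of both lists rests on PYCARD and at most 1 other gene.

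Genes known to be hypermethylated in prostate cancer gave 2 of 22, PYCARD and S100A6. The S100A6 gene, which encodes calcyclin, read 3.22 and 1166 in TR9_MeTA14 and 3.19 and 279 in TR15_MeTA5. The RUNX3 probe selected, for a Runt-domain transcription factor, read 4.80 and 307 in TR9_MeTA14 and 3.17 and 139 in TR15_MeTA5. A second RUNX3 probe was detected on all arrays, at 24.3 and 24.1 without tetracycline and 1129 and 565 with it, so RUNX3 was left out of the 2.

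Annexins and S100 proteins, calcium-binding families, had 4 of 16 silent genes switched on (25% against 2.84%): ANXA2, S100A3, S100A6 and S100A10. S100A10, whose product forms a tetramer with annexin A2, read 7.98 and 415 in TR9_MeTA14 and 13.9 and 262 in TR15_MeTA5. S100A3 read 3.61 and 664 in TR9_MeTA14 and 3.55 and 169 in TR15_MeTA5. All 4 stood higher in TR9_MeTA14 +Tet than in TR15_MeTA5 +Tet, by 0.15 to 1.54 on the scaled log2 level. In the heat shock list 2 of 6 silent genes were switched on, HSPA1A and HSPA2. The lists were small, and a single gene moves such a share by several percentage points. They were also chosen with earlier results of these data known.

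Developmental transcription factors of the homeobox, PAX and SOX families gave the most genes of any list, 8 of 68 (11.8%). They are PAX2, SIX2, TLX3, CDX2, POU4F1, SOX11, SOX15 and BARX1, transcription factors mostly known from the development of particular organs. CDX2, which specifies intestine, read 4.05 and 713 in TR9_MeTA14 and 4.06 and 475 in TR15_MeTA5. SIX2, a factor of nephron progenitors, read 6.23 and 796 in TR9_MeTA14 and 9.41 and 292 in TR15_MeTA5. SOX15 reached 585 and 229 in TR9_MeTA14 +Tet and TR15_MeTA5 +Tet. BARX1 reached 416 and 381. The lowest levels of TR9_MeTA14 +Tet among these genes, picked out once seen, were those of POU4F1 (151, with 144 in TR15_MeTA5) and TLX3 (157 and 167). HOX cluster genes gave 2 of 22, HOXA7 (18.2 and 433 in TR9_MeTA14, 17.6 and 361 in TR15_MeTA5) and HOXB2, which reached 154 and 143. HOXA7 was thus a faint signal even before induction.

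Neuronal genes gave 4 of 38 (10.5%): NEFM, NEFH, NPTX1 and ELAVL3. NEFH and NEFM encode the heavy and medium neurofilament chains of the axon. NEFH read 8.64 and 3603 in TR9_MeTA14 and 3.40 and 5618 in TR15_MeTA5, and a second NEFH probe, also selected, read 12.7 and 302 in TR9_MeTA14 and 18.2 and 511 in TR15_MeTA5. Both probes placed NEFH higher in TR15_MeTA5. NEFM read 3.70 and 2010 in TR9_MeTA14 and 3.75 and 1580 in TR15_MeTA5. NPTX1, a secreted synaptic pentraxin, read 3.30 and 1628 in TR9_MeTA14 and 3.41 and 631 in TR15_MeTA5. ELAVL3, a neuronal RNA-binding protein, reached 194 and 402.

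Muscle contractile genes gave 4 of 25 (16%): MYH7, MYH11, CNN1 and RYR1. MYH7, a slow skeletal and cardiac myosin heavy chain, was the brightest, with 13.01 and 220 in TR9_MeTA14 and 3.32 and 552 in TR15_MeTA5. A second MYH7 probe reached 49.4 and 148. MYH11, smooth muscle myosin, was selected through both its probes, and the brighter reached 173 and 145. CNN1, a calponin of smooth muscle, reached 123 and 139, and RYR1, the calcium release channel of skeletal muscle, 136 and 125. These 3 lay close to the floor.

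**Figure D3:**
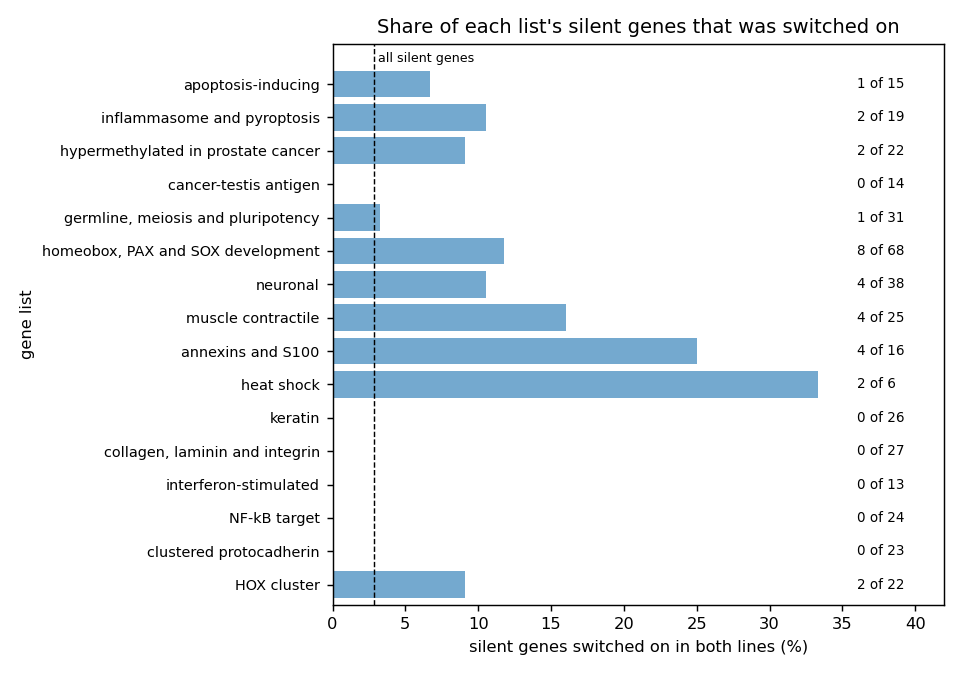
Share of each list's silent genes that was switched on in both lines (x axis, percent, from 0), with the counts at the right. Silent means that no probe of the gene was well above background on a -Tet array, and the dashed line marks 2.84%, the share of all 5282 silent genes. The annexin and S100 list stood at 25% (4 of 16) and keratins at 0 of 26.

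Other lists stayed near or below the overall share. Germline, meiosis and pluripotency genes gave 1 of 31, DPPA3, an oocyte and germ cell factor that read 3.29 and 167 in TR9_MeTA14 and 3.25 and 279 in TR15_MeTA5. The list of cancer-testis antigens, which methylation keeps silent in most somatic cells, held 58 genes, of which 39 were measured, and gave 0 of 14. Antigens outside the list were not counted. Keratins gave 0 of 26, collagens, laminins and integrins 0 of 27, interferon-stimulated genes 0 of 13, clustered protocadherins 0 of 23 and NF-kB targets 0 of 24. In the last list IER3 had a selected probe beside its detected one. Some of these genes were detected with tetracycline at a lower signal or in 1 line. Of the silent genes, 2 cancer-testis antigens, 7 keratins and 9 NF-kB targets had a probe well above background on a +Tet array. The share of all silent genes by this wider criterion was not counted. Of all 11559 probes not well above background on both -Tet arrays, 8670 stayed so on both +Tet arrays. By name stem, silent solute carriers gave 3 of 121 (2.48%), zinc finger genes 2 of 58 (3.45%) and long intergenic noncoding RNAs 0 of 177. Potassium channels, at 3 of 56 (5.36%), stood above the 2.84% of all silent genes.

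Several germline and embryonic genes outside that list were also selected, and these were picked out after their values were seen. LEUTX, a homeobox gene of the early embryo, read 4.04 and 1648 in TR9_MeTA14 and 18.8 and 1265 in TR15_MeTA5. DMRTB1, a testis factor, reached 1204 and 629. PRAMEF2, PRAMEF15 and PRAMEF19 belong to a clustered family of near-identical copies, and reached 439, 424 and 358 in TR9_MeTA14 +Tet, with 161, 153 and 225 in TR15_MeTA5 +Tet. Another PRAMEF15 probe read 7.26 and 10797 in TR9_MeTA14 and 116 and 6161 in TR15_MeTA5, and was detected without tetracycline in the latter, so PRAMEF15 was not silent there. Probes of this family may read one another's transcripts. H19, an imprinted transcript and the only long noncoding RNA among the 172 genes, reached 351 and 334. Of the rest, 168 were protein-coding and 3 were transcribed pseudogenes.

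The 172 genes were spread over the genome. The largest number lay on chromosome 1, with 29 genes (16.9% of the members against 10.3% of the genes measured), followed by 16 each on chromosome 17 (9.30% against 5.82%) and chromosome 19 (9.30% against 6.92%) and 14 on chromosome 16 (8.14% against 4.13%). Chromosomes 1, 17, 19 and 16 held 509, 258, 259 and 150 of the 5282 silent genes. Chromosomes 21 and Y had no member, with 71 and 41 silent genes, where the overall share of 2.84% would give few. Among measured genes in their order along the chromosome, 2 pairs of switched-on genes were direct neighbours, SHE with TDRD10 on chromosome 1 and SLC10A4 with ZAR1 on chromosome 4.

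The lines did not reach the same levels. After scaling, the median difference of the 198 probes, TR15_MeTA5 +Tet minus TR9_MeTA14 +Tet, was -0.17 on the log2 scale, where the 21098 probes detected on both +Tet arrays had 0.10. At least 2-fold higher in TR9_MeTA14 were 43 of the 198 probes (21.7%, against 9.22% of the 21098), and at least 2-fold higher in TR15_MeTA5 were 23 (11.6%, against 13.2%). These levels took part in the selection, so no test is given. Across the 198 probes the log2 levels of the lines correlated with a Pearson r of 0.67 and a Spearman rho of 0.60, a description over probes that were all cut at the floor. Without scaling the median difference was -0.69.

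**Figure D4:**
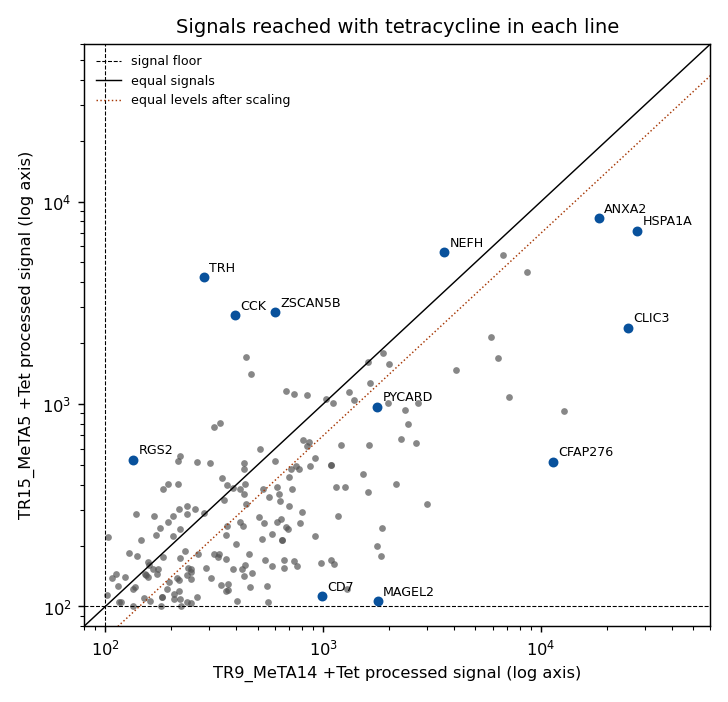
Processed signal of each of the 198 probes in TR9_MeTA14 +Tet (x axis) and TR15_MeTA5 +Tet (y axis), both log axes. The solid line marks equal signals, the dotted line equal levels after scaling and the dashed lines the floor of 100 that selected the probes. TRH (284 and 4224) lies far above the lines, CFAP276 (11353 and 519) far below.

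The most unequal genes included 3 that stood higher in TR15_MeTA5. TRH, the precursor of thyrotropin-releasing hormone, reached 284 in TR9_MeTA14 and 4224 in TR15_MeTA5, a scaled log2 difference of 4.42. CCK, the cholecystokinin precursor, reached 393 and 2738 (3.32), and ZSCAN5B, a zinc finger gene, 600 and 2839 (2.76). Both TRH and CCK encode peptide messengers of the brain. Higher in TR9_MeTA14 were CFAP276, a cilia- and flagella-associated gene, at 11353 and 519 (-3.93), MAGEL2, an imprinted gene of the MAGE family, at 1782 and 106 (-3.55), and CLIC3 (-2.88). Signals of all 6 on the -Tet arrays lay between 3.12 and 14.7. The spots of a replicated probe gave an SD of 0.0903 for a log2 ratio, which measures the array and not the cells.

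Probes switched on in 1 line were usually detected in the other. The counts rest on the same floor of 100, applied to unscaled signals. Of 204 probes on in TR9_MeTA14 alone, 153 were well above background in TR15_MeTA5 +Tet below the floor, and 51 were not. Their medians were 170 and 44.2. Of 60 on in TR15_MeTA5 alone, 49 were detected below the floor in TR9_MeTA14 +Tet and 11 were not. NAV3, a microtubule-associated gene, led the first set with 1672 against 77.6, and CHGA, the neuroendocrine granule protein chromogranin A, led the second with 341 against 79.0.

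Other probes of the same genes gave a reading that the selection did not use, on the same 4 arrays. There were 59 such probes, of 50 genes. Of the 33 that were not well above background on both -Tet arrays, 16 were detected on both +Tet arrays, 9 on 1 and 8 on none. Of all 11559 probes without the flag on both -Tet arrays, members included, 895 were detected on both +Tet arrays and 8670 on none. The genes named next were chosen after their values were seen. POU4F1 had a second probe at 3.32 and 38.3 in TR9_MeTA14 and 3.28 and 32.5 in TR15_MeTA5, while a second FOXL2 probe stayed at or below 6.64. Of the 19 detected on all 4 arrays, 11 stood at least 2-fold higher on the +Tet array of each line. The same share over all probes detected on all 4 arrays was not counted. Among the largest of the 11 increases was that of FGFR3, a fibroblast growth factor receptor. Its other probe read 236 and 15639 in TR9_MeTA14 without and with tetracycline, and 378 and 8352 in TR15_MeTA5. SUSD2, a membrane protein gene, read 331 and 23363 on its other probe in TR9_MeTA14, and 332 and 9871 in TR15_MeTA5. For 23 of the 194 names another probe was detected on a -Tet array, so for these the selected probe was silent and the gene was not.

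The prostate identity of the cells was checked on markers. All 9 luminal LNCaP markers, KLK3 among them, were detected on the 4 arrays. Without and with tetracycline their signals summed to 324346 and 149944 in TR9_MeTA14 and to 254082 and 237735 in TR15_MeTA5. The lower sum in TR9_MeTA14 +Tet accompanied its higher levels of the switched-on genes, and its part in them was not tested. Basal markers were absent for 3 of 4 genes (KRT5, KRT14, TP63) and fibroblast markers for 4 of 5 on all arrays. Endothelial markers summed to between 344 and 489 with no array far from the others.

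Leukocyte markers summed to 233 and 1460 in TR9_MeTA14 and 232 and 688 in TR15_MeTA5, without and with tetracycline. CD14, a monocyte co-receptor, read 69.4 and 840 in TR9_MeTA14 and 52.9 and 373 in TR15_MeTA5. PTPRC, expressed by nearly all leukocytes, read 97.2 and 145 in TR9_MeTA14 and 109 and 105 in TR15_MeTA5 on its brightest probe, and another of its probes was detected in TR9_MeTA14 +Tet alone (30.4, from 15.1). CD3E lay between 23.9 and 41.2. Blood cell genes were also among the members, and were singled out after their values were seen: LCK, a T cell kinase, reached 599 and 526, CD7 985 and 112, CD6 330 and 175 and CD52 237 and 143 in TR9_MeTA14 +Tet and TR15_MeTA5 +Tet. Another LCK probe was detected on all 4 arrays. It read 21.9 and 971 in TR9_MeTA14 and 17.6 and 890 in TR15_MeTA5, without and with tetracycline, so LCK was not silent. The part of other cell types in these values was not tested.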

How the data were processed

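Total RNA of both lines, untreated or after tetracycline, was labeled with Cy3 and hybridized to Agilent whole human genome arrays, 1 per condition, on 1 slide. The authors extracted the images with Agilent Feature Extraction, version 10.7.3.1 per the file headers and 9.5.1 in the submitters' processing notes, and deposited for each spot the intensity after background subtraction (processed signal), its median pixel intensities and its flags. Nothing was normalized from one array to another. A series-wide table of 44495 rows, also deposited, held the same processed signals and adds no check.

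Outlier spots (255 to 344 per array) were left out, log2 signals of a probe's spots were averaged, flags were set by majority, and the 75th percentile over non-control probes was subtracted. No spot was saturated. The number of arrays limits the precision, with no spread between cultures. The selection code was run on simulated data whose members were planted to meet the rule. That checks the code and not the reliability of the selection. Alternatives were run on spots, flag, floor, scaling and background. Calculations, quantile normalization included, ran in Python 3.11.15 (numpy 2.4.6, pandas 2.3.3). Normexp (offset 50, on median pixel intensities) ran in limma 3.58.1 in R 4.3.3. Genes were named through RefSeq accessions on assembly GRCh38.p14 (25422 of 34127 probes), for names and neighbours only, since the array design is annotated on another build.

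The members and gene lists were chosen with earlier results of these data known. Named genes were the 10 with the largest smaller bound, the 3 most unequal in each direction, up to 4 per list by +Tet signal with all of the apoptosis, inflammasome and prostate lists, the 3 probes on each side of the floor, genes the study names and the cell type markers. Any other gene was chosen after its values were seen. Single values of some marker genes are not reported here.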

Additional observations from a re-analysis of the deposited data

How the results depend on the processing

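The number of switched-on probes was 198 with all spots kept and 197 with a unanimous flag, and moved with the definition of silence and the floor. It was 54 with the flag for a positive and significant signal, 362 with a floor of 50, 108 with a floor of 200 and 895 with none. The gene names with no other probe detected without tetracycline numbered 44, 311, 101 and 727 in the same order, against 171. The median log2 bound in TR9_MeTA14 (4.48) was 4.15 with quantile normalization, 4.81 without scaling, 2.19 with normexp and 5.70 as a plain ratio. The normexp values, here and below, were also quantile normalized. In TR15_MeTA5 (3.50) it was 4.06 without scaling, 1.98 with normexp and 4.93 as a plain ratio. The median line difference (-0.17) was -0.69 without scaling. With a floor of 200, 1.74% of all silent genes were switched on, with 0% of the germline list and 4.00% of the muscle list. No fold bound of a named gene and no median bound changed sign. The rule largely fixed that in advance, since members had to reach a signal of at least 100 from the dim end. The median line difference did not change sign. The median change over all detected probes did, from -0.15 and -0.19 to 0.18 and 0.38 without scaling, and the germline list, above the share of all silent genes at the floor of 100, was below it at 200. Of the 70 bounds of named genes, 32 moved lower with quantile normalization and 70 with normexp (the lowest to 0.89 on the log2 scale). Without scaling 70 moved higher, and as plain ratios 64 did. Normexp adds an offset that shrinks folds of dim probes, and a plain ratio divides by signals below the detection limit. The cause of the other shifts was not tested. No paired analysis was possible because no result here comes from a test, the tetracycline contrast of both lines having chosen the probes. With 1 sample per condition no replicate could be left out. The planned CpG alternatives were not run, because too few promoters matched, and leaving out genes with a second detected probe is already part of the list counts. Signal over background, not depth, limits what can be called silent.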

Other observations

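Some identifiers without a RefSeq name were among the brightest of the switched-on probes. ENST00000419982 read 12.1 and 8633 in TR9_MeTA14 and 11.3 and 4470.5 in TR15_MeTA5, without and with tetracycline. ENST00000446649 read 3.40 and 12796 in TR9_MeTA14 and 7.15 and 927 in TR15_MeTA5. The next probes on in TR9_MeTA14 alone, after NAV3, were those of DNALI1 (1362 with tetracycline, 64.4 in TR15_MeTA5), ODAD1 (1332 and 76.2), MAB21L4 (1177 and 95.7), DCDC2B (983 and 19.1, not well above background) and AKAP14 (921 and 33.0), named by their signal after the values were seen. After CHGA, the probes on in TR15_MeTA5 alone included BMP7 (338, with 39.6 in TR9_MeTA14) and ICAM1 (230 and 78.2).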
